A study of Drosophila melanogaster with 6 samples.

Results

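The genes of interest were 7 genes of the *Drosophila* lipid droplet and of triglyceride turnover, chosen by name. They were the droplet coat genes *Lsd-1*, *Lsd-2* and *Jabba*, the droplet assembly gene *Seipin*, the triglyceride synthesis gene *mdy*, and the lipase genes *bmm* and *Hsl*. Their FBgn identifiers were found among the 17489 genes of the count files, and all 7 passed the filter of at least 10 counts in at least 3 libraries, which left 11915 genes. The libraries hold mRNAs recovered by translating mRNA affinity purification (TRAP), which pulls down ribosomes that carry a tagged Rpl3 protein. All flies were males of the genotype *Gr5a>UAS-Rpl3-3XFLAG*, in which the *Gr5a* driver directs the tag to sweet-sensing taste neurons. The SD + OSMI flies ate a sugar diet with 30% sucrose, and the CD + OSMI flies ate a control diet with 5% sucrose. The food of both groups contained 10 µM OSMI-1, an inhibitor of the enzyme OGT, given in 10% DMSO. Flies were on their diet for 7 days, starting at day 5. Each diet had 3 replicates, numbered 4 to 6 on SD + OSMI and 1 to 3 on CD + OSMI, and each replicate pooled 300 heads.

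Animals store triglyceride in lipid droplets, which bud from the endoplasmic reticulum and are covered by a layer of phospholipid and coat proteins. Perilipins are coat proteins that decide how far lipases can reach the stored fat, and in flies the fat body, the counterpart of liver and adipose tissue, holds most of the stores and reaches into the head. When energy is needed, the adipokinetic hormone signals through protein kinase A, and the lipases encoded by *bmm* and *Hsl* release fatty acids.

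The total count was 13324513 to 16122009 in the SD + OSMI libraries and 15252054 to 15263033 in the CD + OSMI libraries. Levels are given as CPM, read counts relative to the total of their library after TMM scaling, with factors between 0.956 and 1.04. No replicates looked like a library deposited again, since the chi-square between counts of a pair within a diet was 10.4 to 32.8 times its degrees of freedom. The labelled cells could be checked only weakly. The summed level of the sweet taste receptor genes was 3.08 to 5.19 CPM on SD + OSMI and 2.67 to 5.74 CPM on CD + OSMI, with *Gr64b*, *Gr64c*, *Gr64d* and *Gr64e* at 0, whereas the photoreceptor gene *ninaE* averaged 19167 CPM. Why those genes had no counts was not tested. *Gr5a* itself had 90 counts over the 6 libraries. The bitter taste receptor genes summed to 1.65 to 2.25 CPM on SD + OSMI and 1.03 to 1.94 CPM on CD + OSMI. Against input, the authors report *Gr5a*, *Gr64f* and *Gr64a* enriched and bitter receptor genes depleted, a comparison not made here. Mitochondrial large rRNA took 1.22% of the counts in SD + OSMI replicate 6 and 0.197 to 0.256% in the other libraries.

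With 1083 genes called between the diets at an adjusted p under 0.1 (edgeR, 9.09% of the genes tested), 1 of the 7 genes was called. *Lsd-1* fell on SD + OSMI by 39.1%, and none of the 7 was called higher. Across all genes tested, 2.18% were called lower and 6.91% were called higher. The other 6 genes, which include the second perilipin gene and both lipase genes, had log2 fold changes between −0.11 and 0.26 without passing the test. Of the 7 genes, 5 were within 1.5-fold by the test of practical equivalence (q under 0.05), which asks whether a larger change can be refused, and 47.1% of all genes tested were. *Seipin* was neither called different nor equivalent. The median log2 fold change of the 7 genes was −0.02, against a median of −0.003 over all genes tested.

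**Figure D1:**
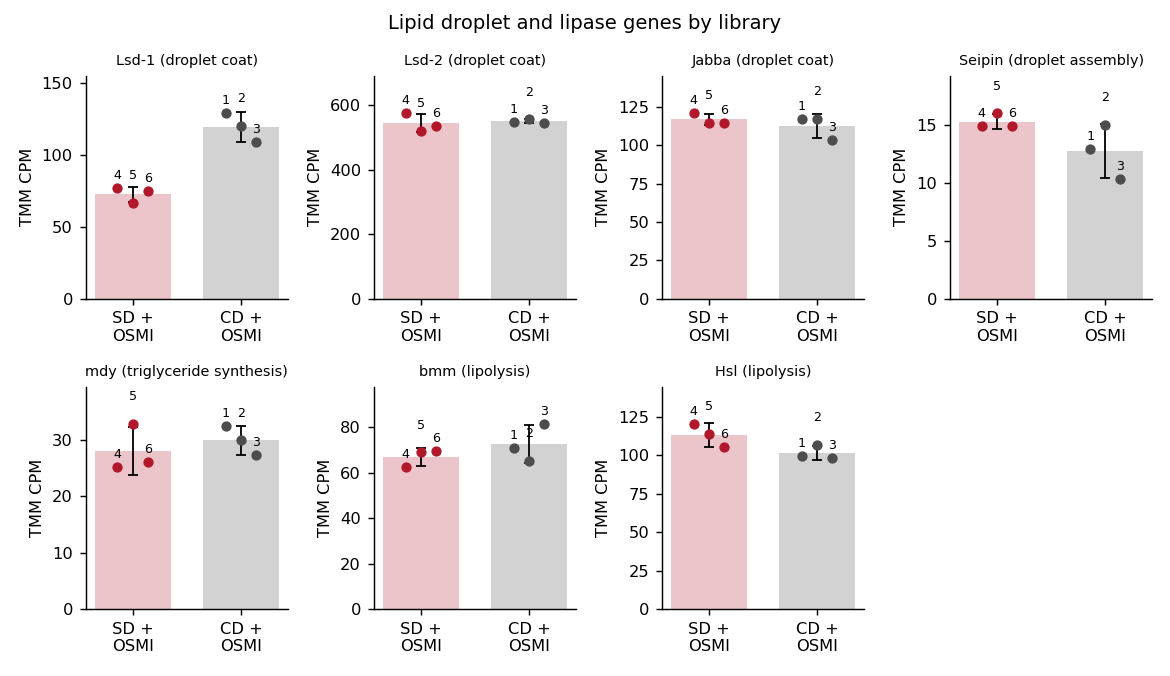
Normalised read counts (TMM CPM, linear axes from 0) of the 7 genes, 1 panel per gene. Points are libraries with their replicate numbers, bars are means and error bars are SDs (n = 3 per diet). The 3 SD + OSMI libraries lie below the 3 CD + OSMI libraries for *Lsd-1*, and the libraries of the diets overlap for *Lsd-2*, *Jabba*, *Seipin*, *mdy*, *bmm* and *Hsl*.

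The *Lsd-1* gene (FBgn0039114) lies on the plus strand of chromosome 3R of BDGP6 from 23763857 to 23766662 and has 4 annotated transcripts. It encodes a perilipin that sits on droplets of the fat body and is phosphorylated by protein kinase A, which opens the droplet to lipases. On SD + OSMI, *Lsd-1* was at 76.6, 66.7 and 74.7 CPM in replicates 4, 5 and 6, against 129, 120 and 109 CPM in CD + OSMI replicates 1, 2 and 3. Every SD + OSMI library was below every CD + OSMI library, a pattern found for 10.2% of all genes tested (14.5% were above in every library, and 24.8% did not overlap in either direction). It was the 1 gene of the 7 whose diets did not overlap. The raw counts of *Lsd-1* were 1210, 1066 and 993 on SD + OSMI and 2000, 1752 and 1677 on CD + OSMI. The means were 72.7 ± 5.23 CPM and 119 ± 10.2 CPM (SD, n = 3 each). The log2 fold change of *Lsd-1* was −0.72 (SE 0.09, 95% interval −0.91 to −0.52, adjusted p = 0.00139 from edgeR). The interval includes changes smaller and larger than 1.5-fold.

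*Lsd-1* ranked 11 of 11915 by p-value, and 7 among the 260 genes called lower. Its drop was larger than the median of those 260 genes, a log2 fold change of −0.42. Of them, 62 had a larger drop than *Lsd-1*, and 5 of the 62 also had a higher mean level in CPM, namely *Lsp1beta*, *Lsp2*, *CG32444*, *Sodh1* and *lncRNA:Hsromega*. The direction and the call of *Lsd-1* held under all 14 alternatives tried, with log2 fold changes between −0.78 and −0.65 and adjusted p between 1.77e-08 and 0.0155. With SD + OSMI replicate 6 left out, the whole table gave 42 genes higher and 34 genes lower, and *Lsd-1* was still called lower. On the opposite strand, exons of *CG10214* overlap those of *Lsd-1* by 144 bases. *CG10214* had 349 counts over the 6 libraries, against 8698 for *Lsd-1*, and a log2 fold change of 0.07 (adjusted p = 0.920 from edgeR).

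The other perilipin gene, *Lsd-2* (FBgn0030608; minus strand of X, 15069127 to 15076220), protects stored triglyceride from breakdown and had the highest level of the 7 genes. It was at 576, 521 and 537 CPM on SD + OSMI and at 550, 558 and 545 CPM on CD + OSMI. The SD + OSMI values spanned those of CD + OSMI, with replicate 4 at the top and replicate 5 at the bottom. Means were 545 ± 28.4 CPM on SD + OSMI and 551 ± 6.43 CPM on CD + OSMI (SD, n = 3 each). The log2 fold change of *Lsd-2* was −0.02 (SE 0.08, 95% interval −0.20 to 0.16, adjusted p = 0.942 from edgeR), and it was equivalent within 1.5-fold. The ratio between the perilipin genes differed between the diets. Per kilobase of exon, *Lsd-1* was at 31.2, 30.0 and 32.6% of *Lsd-2* in the SD + OSMI libraries and at 55.1, 50.5 and 46.8% in the CD + OSMI libraries, without overlap. The log2 ratio of *Lsd-1* to *Lsd-2* averaged −1.68 on SD + OSMI and −0.98 on CD + OSMI. These levels depend on the length taken for a gene, since exons of *Lsd-2* span 4598 bases and its longest coding sequence 1056. Per kilobase of coding sequence, *Lsd-1* was at 10.9, 10.5 and 11.4% of *Lsd-2* on SD + OSMI and at 19.2, 17.6 and 16.3% on CD + OSMI, again without overlap.

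*Jabba* (FBgn0259682; minus strand of 2R, 18757074 to 18761082) encodes a coat protein that anchors histones to the droplets of embryos. Its levels were 121, 115 and 115 CPM on SD + OSMI and 117, 117 and 104 CPM on CD + OSMI. The diets overlapped, and CD + OSMI replicate 3 was the lowest library. With means of 117 ± 3.63 CPM and 113 ± 7.91 CPM (SD, n = 3 each), the log2 fold change of *Jabba* was 0.05 (SE 0.08, 95% interval −0.13 to 0.23, adjusted p = 0.776 from edgeR). It was equivalent within 1.5-fold. *Lsd-1* made up 18.2 ± 0.686% of the summed level per kilobase of the 3 coat genes on SD + OSMI and 26.7 ± 1.30% on CD + OSMI (SD, n = 3 each). Per kilobase of coding sequence the share of *Lsd-1* was 8.75 ± 0.348% on SD + OSMI and 13.5 ± 0.884% on CD + OSMI. Exons of *Cyp12b2* overlap those of *Jabba* by 10 bases on the opposite strand, and *Cyp12b2* had a log2 fold change of −0.06 (adjusted p = 0.822 from edgeR).

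*Seipin* (FBgn0040336; plus strand of X, 2619799 to 2622140) encodes a protein of the endoplasmic reticulum that acts where droplets form and sets their size. It was the lowest of the 7 genes, at 14.9, 16.02 and 14.9 CPM on SD + OSMI and 12.9, 15.02 and 10.3 CPM on CD + OSMI. CD + OSMI replicate 2 reached the range of the SD + OSMI libraries, while CD + OSMI replicate 3 was the lowest library. The mean was 15.3 ± 0.658 CPM on SD + OSMI and 12.7 ± 2.36 CPM on CD + OSMI (SD, n = 3 each). The log2 fold change of *Seipin* was 0.26 (SE 0.16, 95% interval −0.09 to 0.61, adjusted p = 0.394 from edgeR), and the q of equivalence was 0.0800. *Seipin* had the widest interval of the 7 genes, and its spread on CD + OSMI was 18.5% of the mean, against the 7.20% that counting error alone gives. On SD + OSMI its spread was 4.31%, below the 6.60% of counting error. Spread above counting error was not particular to *Seipin*, as *bmm* on CD + OSMI had 11.5% against 3.01%. Exons of *brv3* overlap those of *Seipin* by 72 bases on the opposite strand, and *brv3* had a log2 fold change of 0.34 (adjusted p = 0.429).

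The triglyceride synthesis gene *mdy* (FBgn0004797; plus strand of 2L, 16816660 to 16826964) encodes the diacylglycerol acyltransferase of the last step to triglyceride. On SD + OSMI it was at 25.2, 32.9 and 26.1 CPM, and on CD + OSMI at 32.5, 30.0 and 27.3 CPM. The diets overlapped over most of their range, since SD + OSMI replicate 5 was the highest of the 6 libraries. Means were 28.0 ± 4.19 CPM on SD + OSMI and 29.9 ± 2.58 CPM on CD + OSMI (SD, n = 3 each). The log2 fold change of *mdy* was −0.09 (SE 0.13, 95% interval −0.36 to 0.18, adjusted p = 0.726 from edgeR), and it was equivalent within 1.5-fold. On the opposite strand, *Cse1* and *CG13280* overlap the span of *mdy* without sharing exon bases. *CG13280* was called higher, with a log2 fold change of 0.58 (adjusted p = 0.0821 from edgeR), and *Cse1* was not called (−0.11).

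The lipase gene *bmm* (FBgn0036449; minus strand of 3L, 14776496 to 14786412) encodes Brummer, the fly counterpart of the mammalian adipose triglyceride lipase. It was at 62.5, 68.9 and 69.3 CPM on SD + OSMI, against 70.7, 65.1 and 81.4 CPM on CD + OSMI. The diets overlapped, with CD + OSMI replicate 3 highest. At means of 66.9 ± 3.82 CPM and 72.4 ± 8.29 CPM (SD, n = 3 each), the log2 fold change of *bmm* was −0.11 (SE 0.10, 95% interval −0.32 to 0.09, adjusted p = 0.534 from edgeR), equivalent within 1.5-fold.

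The hormone-sensitive lipase gene *Hsl* (FBgn0034491; plus strand of 2R, 20257650 to 20261726) was at 120, 114 and 105 CPM on SD + OSMI and at 99.7, 107 and 97.9 CPM on CD + OSMI. Replicates 4 and 5 of SD + OSMI were above all CD + OSMI libraries, and replicate 6 was below CD + OSMI replicate 2. *Hsl* averaged 113 ± 7.61 CPM on SD + OSMI and 101 ± 4.64 CPM on CD + OSMI (SD, n = 3 each). Its log2 fold change was 0.16 (SE 0.08, 95% interval −0.02 to 0.34, adjusted p = 0.296 from edgeR). The interval reached 0.34 on the log2 scale, and *Hsl* was equivalent within 1.5-fold. Per kilobase, *Hsl* made up 51.7 ± 3.00% of the sum of *Hsl* and *bmm* on SD + OSMI and 47.1 ± 3.84% on CD + OSMI (SD, n = 3 each), and the libraries of the diets overlapped in this share.

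**Figure D2:**
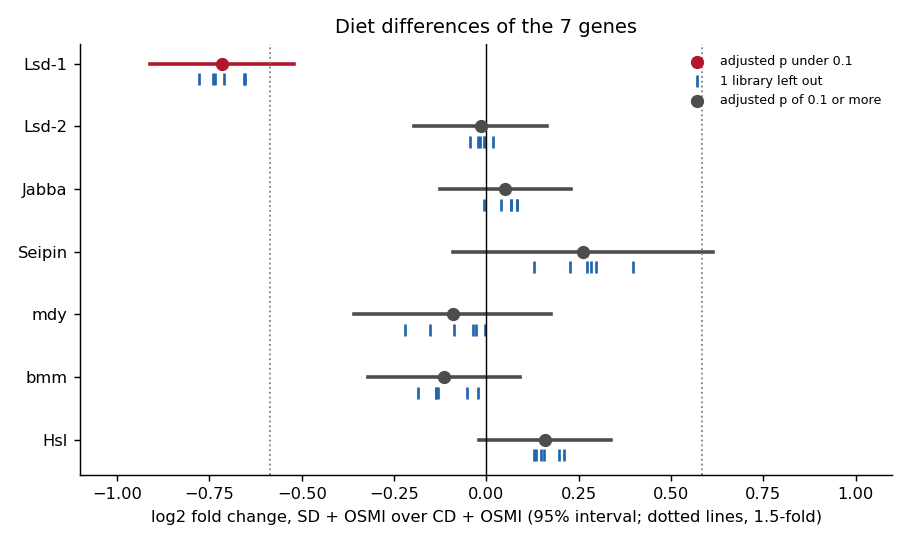
Log2 fold changes of the 7 genes, SD + OSMI over CD + OSMI (x axis). Circles are the edgeR estimates, and lines are 95% intervals derived from its F test. Short blue marks are the estimates with 1 of the 6 libraries left out, and dotted lines mark 1.5-fold. The interval of *Lsd-1* (−0.91 to −0.52) lies below 0, those of the other genes include 0, and that of *Seipin* (−0.09 to 0.61) alone of these 6 passes the line of 1.5-fold.

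Summed over the 7 genes, the level was 958 ± 34.1 CPM on SD + OSMI and 999 ± 21.6 CPM on CD + OSMI (SD, n = 3 each). Without *Lsd-1*, the sum of the other 6 genes was 885 ± 30.5 CPM on SD + OSMI and 880 ± 13.3 CPM on CD + OSMI. Lengths differ between these genes, so their levels were ranked as CPM per kilobase of exon. *Lsd-2* was first on both diets, with 118.5 CPM per kilobase on SD + OSMI and 119.8 on CD + OSMI. *Lsd-1* and *Jabba* took opposite order on the diets. On SD + OSMI, *Lsd-1* was at 34.0 to 39.1 CPM per kilobase and *Jabba* at 47.5 to 50.1, and on CD + OSMI *Lsd-1* was at 55.5 to 65.8 and *Jabba* at 42.9 to 48.5. The order of this pair was the same in all 3 libraries of a diet, and also when the longest transcript or the longest coding sequence was taken as the length.

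Below these genes stood the lipase genes, whose levels per kilobase overlapped on both diets. *Hsl* averaged 29.4 and *bmm* 27.4 CPM per kilobase on SD + OSMI, and *Hsl* averaged 26.3 and *bmm* 29.7 on CD + OSMI. *mdy* was at 10.4 CPM per kilobase on SD + OSMI and 11.1 on CD + OSMI. *Seipin* was last, at 7.46 on SD + OSMI and 6.23 on CD + OSMI. Apart from the lipase pair, neighbours in this order did not overlap within a diet. Among 10946 protein-coding genes tested, the mean level per kilobase of *Lsd-2* was at percentile 97.4, those of *Lsd-1* and *Jabba* at 91.5 and 91.1, those of *bmm* and *Hsl* at 82.4 and 81.9, that of *mdy* at 57.8 and that of *Seipin* at 44.2.

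**Figure D3:**
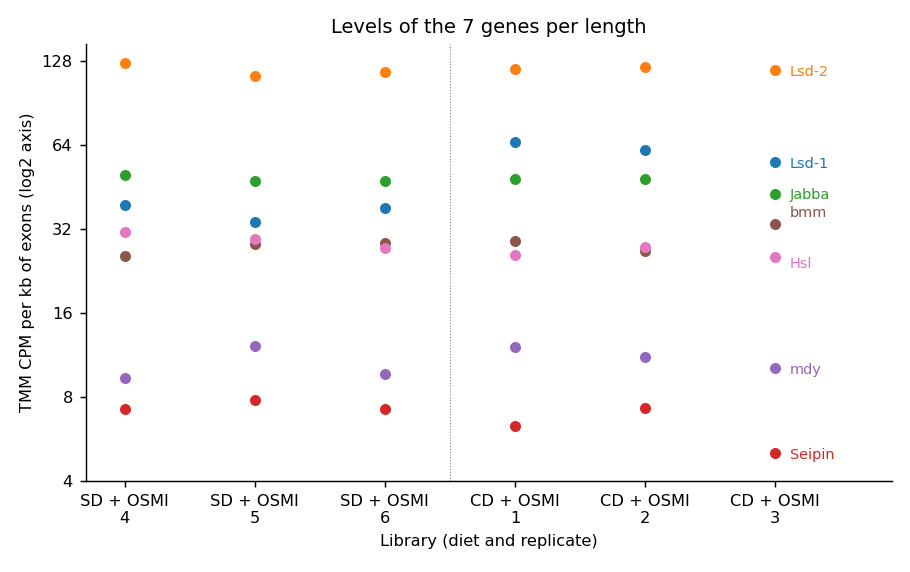
Levels of the 7 genes in each library as TMM CPM per kilobase of exon (log2 axis), with SD + OSMI replicates on the left and CD + OSMI replicates on the right. Each point is 1 library, and colours are genes. *Lsd-1* (blue) is below *Jabba* (green) in the 3 SD + OSMI libraries and above it in the 3 CD + OSMI libraries.

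Other genes of lipid metabolism were taken from 6 lists, which together held 66 genes with an identifier in the files, of which 61 were tested. On SD + OSMI, 3 of these 61 genes were higher and 4 lower, a share of 11.5% called against 9.09% of all genes tested. Their median log2 fold change was −0.04, and 42 were equivalent within 1.5-fold. None of the 7 other droplet proteins was called. They included *klar*, whose product governs the motor-driven transport of droplets, at 376 ± 15.99 CPM on SD + OSMI and 391 ± 20.9 CPM on CD + OSMI, and *Pcyt1*, which encodes an enzyme of phosphatidylcholine synthesis that binds growing droplets, at 179 ± 1.84 CPM and 172 ± 15.8 CPM (SD, n = 3 each).

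None of the 12 other genes of glycerolipid synthesis was called either. The log2 fold changes were −0.18 for *Gpdh1*, the glycerol-3-phosphate dehydrogenase gene (adjusted p = 0.205), and −0.17 for *Lpin*, the phosphatidate phosphatase gene (adjusted p = 0.235). In both, each SD + OSMI library was below each CD + OSMI library, although neither passed the test. Of the 9 tested genes of the adipokinetic hormone axis, 0 were called, and their median log2 fold change was −0.11. They included *AkhR*, the hormone's receptor gene, with a log2 fold change of −0.11, and *Pka-C1*, the gene of a catalytic subunit of protein kinase A, at 926 ± 30.2 CPM on SD + OSMI and 977 ± 76.2 CPM on CD + OSMI (SD, n = 3 each). *Pka-R2*, the gene of a regulatory subunit of that kinase, was at 421 ± 20.0 CPM and 461 ± 50.4 CPM. *Akh* itself was too low to test.

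Among the other lipases, 14 of 18 genes were tested, and 2 were higher and 2 lower on SD + OSMI. *CG5966*, a predicted triglyceride lipase gene, was at 136, 98.8 and 99.95 CPM on SD + OSMI, against 164, 165 and 176 CPM on CD + OSMI. Its log2 fold change was −0.59 (SE 0.12, adjusted p = 0.0196 from edgeR), and the call was lost without CD + OSMI replicate 3 (log2 fold change −0.56) or SD + OSMI replicate 6 (−0.52). *Lip2*, a low-level lipase gene, was at 2.09 ± 0.733 CPM on SD + OSMI and 4.32 ± 0.984 CPM on CD + OSMI (SD, n = 3 each), with a log2 fold change of −1.04 ± 0.33 (SE) and an adjusted p of 0.0892. *CG18258*, a gene of the lipase family, was higher at 12.9, 23.8 and 13.2 CPM on SD + OSMI, against 5.03, 5.48 and 6.68 CPM on CD + OSMI (log2 fold change 1.54, SE 0.25, adjusted p = 0.00764), and was called under all 14 alternatives. *mag*, which encodes a lipase of the gut lumen, was at 16.4, 32.5 and 17.0 CPM on SD + OSMI and 11.6, 5.83 and 7.98 CPM on CD + OSMI (log2 fold change 1.37, SE 0.36, adjusted p = 0.0928). The uncalled lipase genes with the highest levels were *sws*, a neuronal phospholipase gene, at 338 ± 7.26 CPM on SD + OSMI and 341 ± 20.4 CPM on CD + OSMI, and *PAPLA1*, a phospholipase gene, at 251 ± 8.31 CPM and 269 ± 8.96 CPM (SD, n = 3 each). *dob*, a close relative of *bmm*, had a log2 fold change of −0.33 and was not called.

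In fatty acid synthesis, 1 of 7 genes was higher and 1 lower. *FASN2*, a fatty acid synthase gene known from oenocytes, was at 192, 326 and 255 CPM on SD + OSMI, against 130, 117 and 88.4 CPM on CD + OSMI (log2 fold change 1.21, SE 0.24, adjusted p = 0.0617). *Men*, the malic enzyme gene that supplies NADPH, was at 392 ± 22.6 CPM on SD + OSMI and 476 ± 27.3 CPM on CD + OSMI (SD, n = 3 each), with a log2 fold change of −0.28 ± 0.09 (SE) and an adjusted p of 0.0813. *ACC*, the gene of the enzyme that commits carbon to fatty acids, was at 2612 ± 107 CPM and 3071 ± 647 CPM with overlapping diets, and *Acsl*, an acyl-CoA synthetase gene, at 864 ± 33.3 CPM and 854 ± 73.9 CPM (SD, n = 3 each). Of 12 genes of mitochondrial fatty acid oxidation, 1 was called, *Etf-QO*, which passes electrons from fatty acid oxidation to ubiquinone, at 41.7 ± 3.23 CPM on SD + OSMI and 53.2 ± 6.96 CPM on CD + OSMI (SD, n = 3 each), with a log2 fold change of −0.35 ± 0.11 (SE) and an adjusted p of 0.0786. Log2 fold changes were 0.05 for *whd*, the carnitine palmitoyltransferase gene, and 0.01 for *Mtpalpha*, which encodes a subunit of the mitochondrial trifunctional protein, and neither was called.

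Most of these single calls were not kept with each library left out in turn. Calls over all genes also changed in those fits, from 823 higher and 260 lower. They rose to 1634 and 800 without SD + OSMI replicate 4, and were 890 and 217 without CD + OSMI replicate 1. They fell to 123 and 76 without CD + OSMI replicate 2, and to 159 and 55 without replicate 3. Without SD + OSMI replicate 5 they were 103 and 65, and without replicate 6 they were 42 and 34. Where calls fell over all genes, a lost call does not show that the difference came from the library left out. *Lip2* and *Etf-QO* also lost their calls without SD + OSMI replicate 4, where calls over all genes rose. The calls of *mag* and *Men* were lost without CD + OSMI replicate 2 or 3 or SD + OSMI replicate 5 or 6. That of *FASN2* was lost without CD + OSMI replicate 2 or 3 or SD + OSMI replicate 6, and those of *Lip2* and *Etf-QO* with any library left out other than CD + OSMI replicate 1. With 1 library left out the log2 fold change stayed between 0.98 and 1.67 for *mag*, between 1.002 and 1.39 for *FASN2*, between −0.32 and −0.22 for *Men*, between −1.34 and −0.83 for *Lip2*, and between −0.44 and −0.25 for *Etf-QO*. Calls were also gained. Without SD + OSMI replicate 4, 6 of the 61 genes were higher and 6 lower. *Lpin* and genes of the droplet protein and adipokinetic hormone lists were among the new calls. The droplet protein gene *alpha-Est7* was also called with RLE factors, with no minimum count and with a minimum of 50 counts. *ATPCL*, of the fatty acid synthesis list, had a log2 fold change of −0.24 and was not called in the main fit. It was called with the Wald test of DESeq2, with no minimum count and with a minimum of 50 counts.

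**Figure D4:**
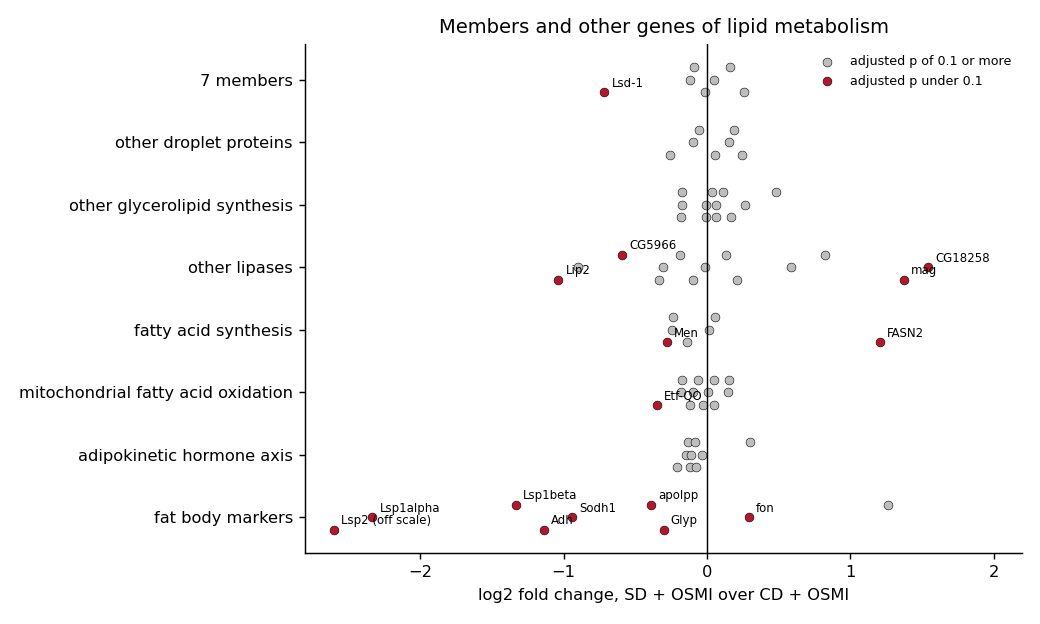
Log2 fold changes, SD + OSMI over CD + OSMI (x axis), of the 7 genes (top row), of 6 other lists of lipid genes and of fat body markers, with 1 point per tested gene. Red points passed an adjusted p under 0.1 (edgeR) and carry their symbols, grey points did not, and *Lsp2* (−6.63) is drawn at the left edge. Among the 7 genes the red point is *Lsd-1* (−0.72), and the rows of other droplet proteins, other glycerolipid synthesis and the adipokinetic hormone axis hold no red point.

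Markers of other cell types moved with the diets as well. Of 11 fat body markers, 9 were tested, and 7 were lower and 1 higher on SD + OSMI. Their summed level was 6950 to 8480 CPM on SD + OSMI and 9648 to 12036 CPM on CD + OSMI, without overlap, and no marker was at 0 in all libraries. *apolpp*, which encodes the apolipoprotein that carries lipid in the blood, had a log2 fold change of −0.39, that of the alcohol dehydrogenase gene *Adh* was −1.14, and that of *Sodh1*, a sorbitol dehydrogenase gene, was −0.94. Log2 fold changes of the 9 tested markers ran from −6.63 for *Lsp2* to 1.26 for *Fbp1*, which was not called, and that of *Lsd-1* was −0.72. The part of these markers in the difference of *Lsd-1* was not tested. In the same libraries *fon* was higher, with a log2 fold change of 0.29, and *Lsd-2*, *Jabba*, *mdy*, *bmm* and *Hsl* were equivalent within 1.5-fold. Although the libraries came from a pull-down of tagged ribosomes, it started from lysate of whole heads and the signal is a bulk one. Without input libraries, fewer cells of a type, less RNA per cell and less carry-over of untargeted RNA cannot be told apart. Oenocyte markers, which include *FASN2*, had 4 of 6 tested genes higher, and their sum was 900 to 1559 CPM on SD + OSMI and 517 to 621 CPM on CD + OSMI. Testis markers had 12 of 20 genes higher, with sums of 2009 to 2851 CPM on SD + OSMI and 1368 to 1793 CPM on CD + OSMI. Of 16 accessory gland markers, 11 were higher and 1 lower, although their sums overlapped at 674 to 826 CPM on SD + OSMI and 606 to 719 CPM on CD + OSMI. More than any other gene of that list, *EbpIII* fed its sum, at 404 ± 11.9 CPM on SD + OSMI and 458 ± 57.8 CPM on CD + OSMI (SD, n = 3 each), and it was not called. Among 12 tested gut markers, 3 were higher, the lipase gene *mag* named above among them, and 1 lower. Their sums were 416 to 719 CPM on SD + OSMI and 322 to 534 CPM on CD + OSMI. Of 6 muscle markers 1 was called, the actin gene *Act57B*, at 324, 342 and 397 CPM on SD + OSMI, against 235, 256 and 246 CPM on CD + OSMI (log2 fold change 0.53, SE 0.09, adjusted p = 0.00884). No photoreceptor, neuron, glia or hemocyte marker was called. The glia markers still summed to 1452 to 1552 CPM on SD + OSMI and 1627 to 1717 CPM on CD + OSMI, without overlap. The sums of the photoreceptor, neuron and hemocyte markers overlapped, although all 6 neuron markers had negative log2 fold changes (median −0.16). The part of any of these markers in the results on lipid genes was not tested.

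**Figure D5:**
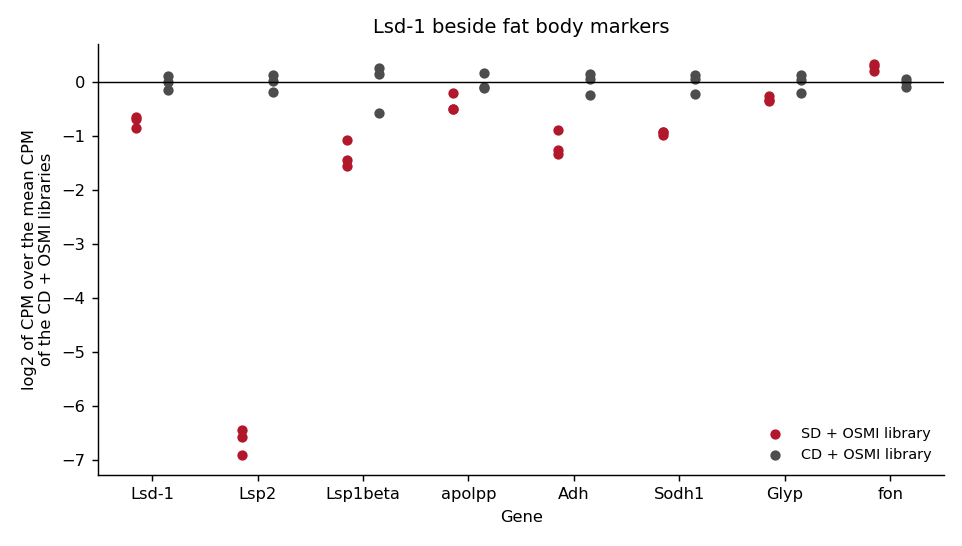
Level of *Lsd-1* and of 7 called fat body markers in each library, as log2 of CPM over the mean CPM of the 3 CD + OSMI libraries (y axis), with SD + OSMI points left of CD + OSMI points for each gene. *Lsd-1* on SD + OSMI lies below all its CD + OSMI points, as do *Lsp2*, *Lsp1beta*, *apolpp*, *Adh*, *Sodh1* and *Glyp*, while *fon* lies above. *Lsp1alpha*, also lower, is not drawn.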

How the data were processed

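Ribosome-bound mRNA was measured in 6 libraries, 3 per diet, grouped by the sample titles. Per the labels and the methods, the authors made ribo-depleted libraries with the Ovation SoLo system, aligned reads that passed a quality filter to BDGP6 (dm6) with STAR, and HTSeq gave the count of each gene. The submitters' processing notes also name SAMtools 1.4. Their own test used DESeq2 1.18.0. The deposited values are raw counts per gene, without normalization. The strand setting and the annotation release of the count are not given in the sources used here. Reads where genes overlap on opposite strands may therefore belong to either gene. Symbols, positions and exon lengths came from Ensembl release 115 (BDGP6) for 17215 of the 17489 identifiers, and 36 more symbols from a table of the authors that pairs identifiers with names. The entries for *FASN1* and *FASN3* in the lists matched no identifier by these sources and were not analysed here.

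A gene needed 10 counts in 3 libraries to be kept. The diets were compared with edgeR 4.0.16 in R 4.3.3 (TMM factors, robust quasi-likelihood F test, diet as the only term). Benjamini-Hochberg adjustment ran over all 11915 genes, and a gene was called at an adjusted p under 0.1. The common biological coefficient of variation was 0.150. Practical equivalence used fold changes and SEs from DESeq2 1.42.0 with a limit of 1.5-fold and q under 0.05. CPM per kilobase used the union of a gene's exons. Plots were made in Python 3.11.15 with matplotlib 3.10.9. Alternatives tried were limma-voom (limma 3.58.1) and the Wald test of DESeq2, upper-quartile and RLE factors, a minimum of 50 counts or none, a threshold of 0.05, removal of the testis, accessory gland and gut lists, each library left out in turn, a narrower and a wider limit of equivalence, and other gene lengths. The test was checked on simulated counts.

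The 7 genes, the lists and the tests were chosen with earlier results of these data known. Named genes are the 7 genes, every called gene of the 6 lipid lists, the 2 genes of each list with the highest mean CPM among those not called, the genes whose pattern is most like each of the 7, genes that overlap them, and at most 3 genes per marker list by mean CPM. *AkhR*, *Akh* and *dob* were added for their role, and *alpha-Est7* and *ATPCL* for their calls under other settings. The fat body markers other than *apolpp*, *Lsp1beta* and *Glyp*, and the genes named with *Lsd-1* among the lower calls, were chosen after their values were seen. The labels do not say whether replicates were separate cultures beyond calling them biological replicates. No sequencing batch is given. Input libraries were not used here.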

Additional observations from a re-analysis of the deposited data

How the results depend on the processing

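Over all genes, 823 were higher and 260 lower. With 1 library left out, 42 to 1634 genes were higher and 34 to 800 lower. At an adjusted p under 0.05 there were 310 higher and 90 lower. Under every setting run, *Lsd-1* was called lower and the other 6 genes were not called. Log2 fold changes turned their sign for *Jabba* without CD + OSMI replicate 3 (−0.00589) and for *Lsd-2* without SD + OSMI replicate 5 (0.0174), neither of them called. With 1 library left out, *Jabba* lay between −0.00589 and 0.0823 and *Lsd-2* between −0.0431 and 0.0174. With the narrower limit of equivalence, 0 of the 7 genes were equivalent, and with the wider one of 2-fold all 7 were, *Lsd-1* included. The settings applied to the 7 other called lipid genes and the other lengths applied to the ratio and share of *Lsd-1* were added after the data were seen. With all libraries kept, the calls of *Lip2* and *Etf-QO* were lost with limma-voom. That of *mag* was lost with RLE factors, and those of *mag* and *FASN2* with no minimum count. At an adjusted p under 0.05 (edgeR), only *CG5966* and *CG18258* of the 7 stayed called. No paired analysis was possible because the diets share no replicate numbers. *Seipin* had the widest interval of the 7 genes. Its spread between CD + OSMI libraries was larger than counting error gives, as were those of the other 6 genes.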

Other observations

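The genes whose levels followed those of the 7 genes most closely over the 6 libraries are given as a description, without a test. Libraries of a diet, depth and normalization are shared by all genes compared. Likeness was Pearson's r on log2(CPM + 1) over 8313 genes with a mean of at least 5 CPM. For *Lsd-1* these were *Spt5* (r = 0.996) and *Klp64D* (r = 0.992), and 229 genes had an r above 0.9. Neither of the first 2 was called between the diets, with log2 fold changes of −0.15 for *Spt5* and −0.24 for *Klp64D*, so the shape of the pattern was alike and its size was not. For *Lsd-2* the closest named gene was *Pkn* (r = 0.992), for *Jabba* it was *Hexo2* (r = 0.948), and for *Seipin* it was *Pex3* (r = 0.980). For *mdy* it was *CG7381* (r = 0.982), for *bmm* *CG2076* (r = 0.989) and *hlk* (r = 0.984), and for *Hsl* *CG5849* (r = 0.985) and *bab2* (r = 0.978). For *Lsd-2*, *Jabba* and *Seipin* 1 gene each among the closest 2 had no symbol in the tables used.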
